A study of Mus musculus with 6 samples.

Results

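The genes described here are the enzymes of sterol and fatty acid synthesis and the proteins that regulate them, in cultured bone marrow B cells of mice. The members were 31 listed genes, taken wherever the gene name of a row, split at commas, equalled a listed name. Of the 31, 30 were matched among the 21307 rows of the table, and 29 were compared between the conditions. Hmgcs1, which encodes the synthase that opens the mevalonate pathway, was not matched in the table used and was not analysed here. Fdft1, the squalene synthase gene, was listed at 16.0 FPKM in ethanol and at 0 in 4-OHT and was not compared.

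The study comprised 6 RNA libraries, 3 for each of 2 conditions, from B cells of pre-tumoral mice aged 6 to 8 weeks on a C57BL/6 x 129S1/SvlmJ background. All 6 libraries came from cells with the Eµ-myc transgene, which drives MYC from an immunoglobulin enhancer, with loxP-flanked Prmt5 alleles and with CreER, a Cre recombinase that tamoxifen activates, and all were cultured with interleukin 7 at 5 ng/ul. Cells received either 50 nM 4-hydroxytamoxifen (4-OHT), which deletes Prmt5, or ethanol as the control for 24 h, and were cultured for another 5 days after washing. The titles of the libraries (WT and PT) name another contrast than the treatments, but the split of the libraries is identical, and the treatments, which the table also names, are used here. The sources used here do not give the promoter that drives CreER, and because no 4-OHT-treated cells without Cre or with intact Prmt5 are among the groups, effects of 4-OHT or of active Cre cannot be told apart from those of Prmt5 loss. The table gives 1 FPKM value (fragments per kilobase of transcript and per mapped fragments of the library) for each gene and condition, so no value has a replicate error, read depth is unknown, and every difference below is a size without a test.

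Sterols and fatty acids are both built from acetyl-CoA. Cholesterol synthesis runs through mevalonate and farnesyl diphosphate to squalene and lanosterol, whereas fatty acids are made by fatty acid synthase from malonyl-CoA and are then elongated and desaturated. Both arms are controlled by the SREBP transcription factors, which SCAP escorts out of the endoplasmic reticulum when sterols are low and which INSIG proteins hold back when sterols are plentiful. SREBP-2 is known mainly for activating sterol genes and SREBP-1 mainly for activating fatty acid genes. Proliferating lymphocytes need both products for new membranes.

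Prmt5, the targeted gene (chromosome 14, 55126019 to 55136307 on mm9), stood at 41.6 FPKM under ethanol and 5.71 under 4-OHT. Myc was at 402 and 213 FPKM. The cell type markers moved between the conditions as well. All 8 B cell markers were lower in 4-OHT (summed level 1322 FPKM under ethanol and 558 under 4-OHT), and all 7 proliferation markers were lower (742 and 469 FPKM). The 7 compared macrophage markers (620 and 1380.4 FPKM), 6 neutrophil lineage markers (315 and 3015 FPKM), 6 stromal markers (31.8 and 523 FPKM) and 5 megakaryocyte markers (221 and 816 FPKM) were all higher in 4-OHT. Lyz2, also listed as a macrophage marker, stood at 3835 FPKM in ethanol and at 0 in 4-OHT and was not compared. The neutrophil lineage markers S100a8 and S100a9 were not matched, and the stromal marker Lum averaged under 1 FPKM. Of the adipocyte markers, Fabp4, which macrophages also express, was at 89.6 and 183 FPKM, while Adipoq, Plin1, Cfd, Lep, Retn and Cidec were below 1 FPKM in both conditions, with Lep listed at 0 in both and Plin1 at 0 in ethanol. In such bulk libraries fewer cells of a type and less RNA per cell cannot be told apart. The part of these shifts in the results on the lipid genes was not tested.

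The 2 arms differed in direction. Differences are given as the log2 ratio of FPKM + 1 (4-OHT over ethanol), which understates the change of low genes, for rows that average at least 1 FPKM and are above 0 in both conditions. In the sterol arm, 12 of 14 compared members were higher in 4-OHT and 2 were lower, with a median log2 ratio of 0.16. In the fatty acid arm, 8 of 10 members were lower and 2 higher (median -0.50). Of the 5 regulators, 4 were lower, with a median of -0.21. Among all 10856 compared rows 44.9% were higher and 55.1% lower (median -0.07), and the median was -0.11 over the 7570 rows with a mean of 5 to 100 FPKM, a range that holds 26 of the 29 members. The difference between the arms was not tested, since no replicate values are at hand.

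**Figure D1:**
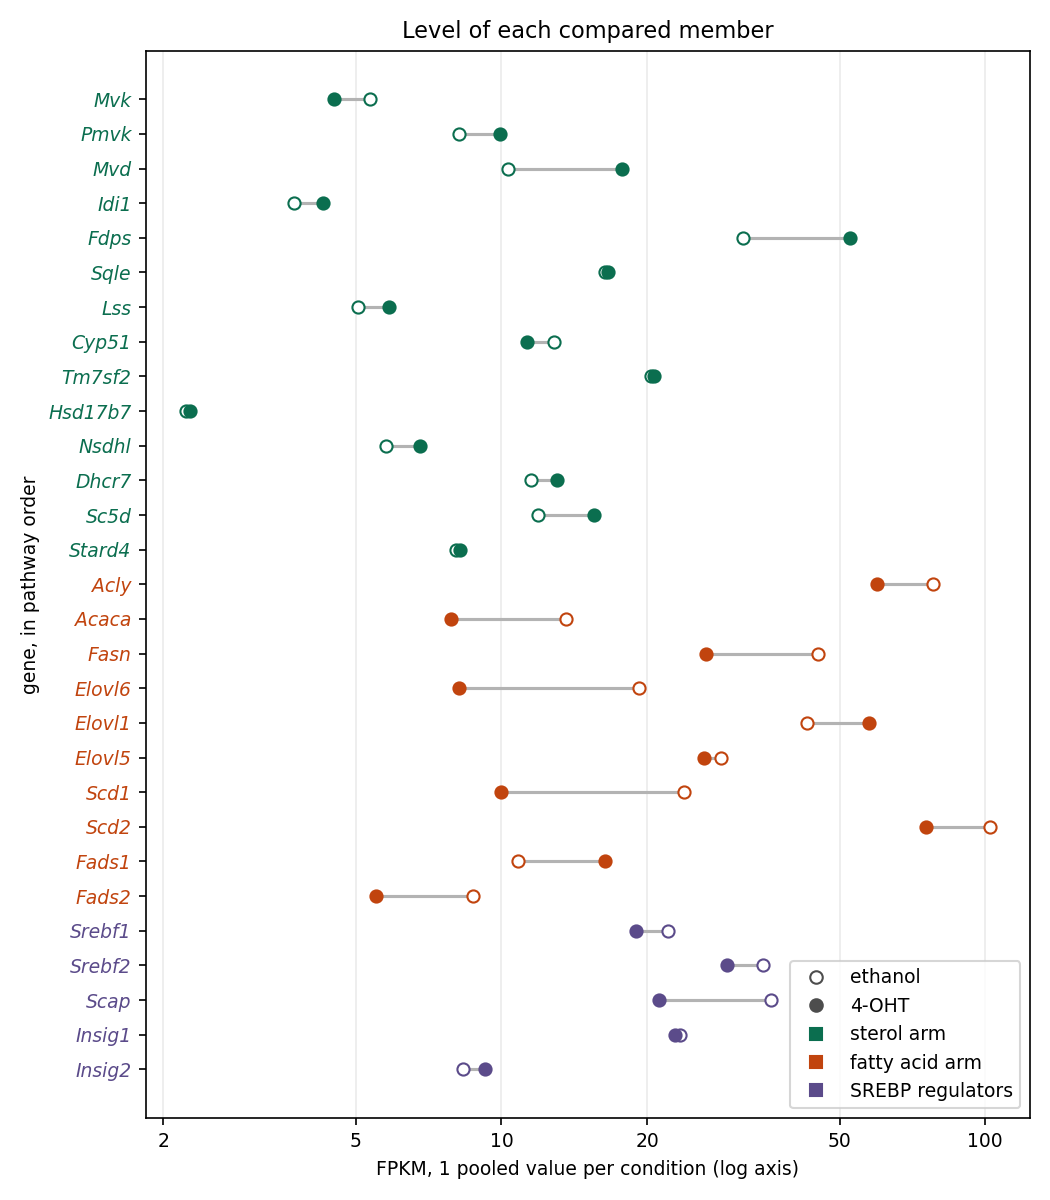
FPKM of each of the 29 compared members in ethanol (open circles) and 4-OHT (filled circles), 1 pooled value per condition on a log axis, in pathway order and coloured by arm. Filled circles lie to the right for 12 of 14 sterol genes and to the left for 8 of 10 fatty acid genes.

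Differences were mostly modest. At a 2-fold threshold 2 members, Scd1 and Elovl6, were lower, where 2.58% of all compared rows were, and 0 members were higher, where 10.4% of rows were. At a 1.5-fold threshold 5 members were lower (Scd1, Elovl6, Scap, Fasn and Acaca; 12.8% of all rows) and 2 were higher (Mvd and Fdps; 19.5% of all rows). Fads2, at 1.49-fold lower, and Fads1, at 1.47-fold higher, lay just outside it. The 4 members Sqle, Tm7sf2, Hsd17b7 and Stard4 had log2 ratios of at most 0.02, and their sign turned when both conditions were scaled to the same sum of FPKM, which left 8 of 14 sterol genes higher. Hsd17b7 also turned under quantile normalization.

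**Figure D2:**
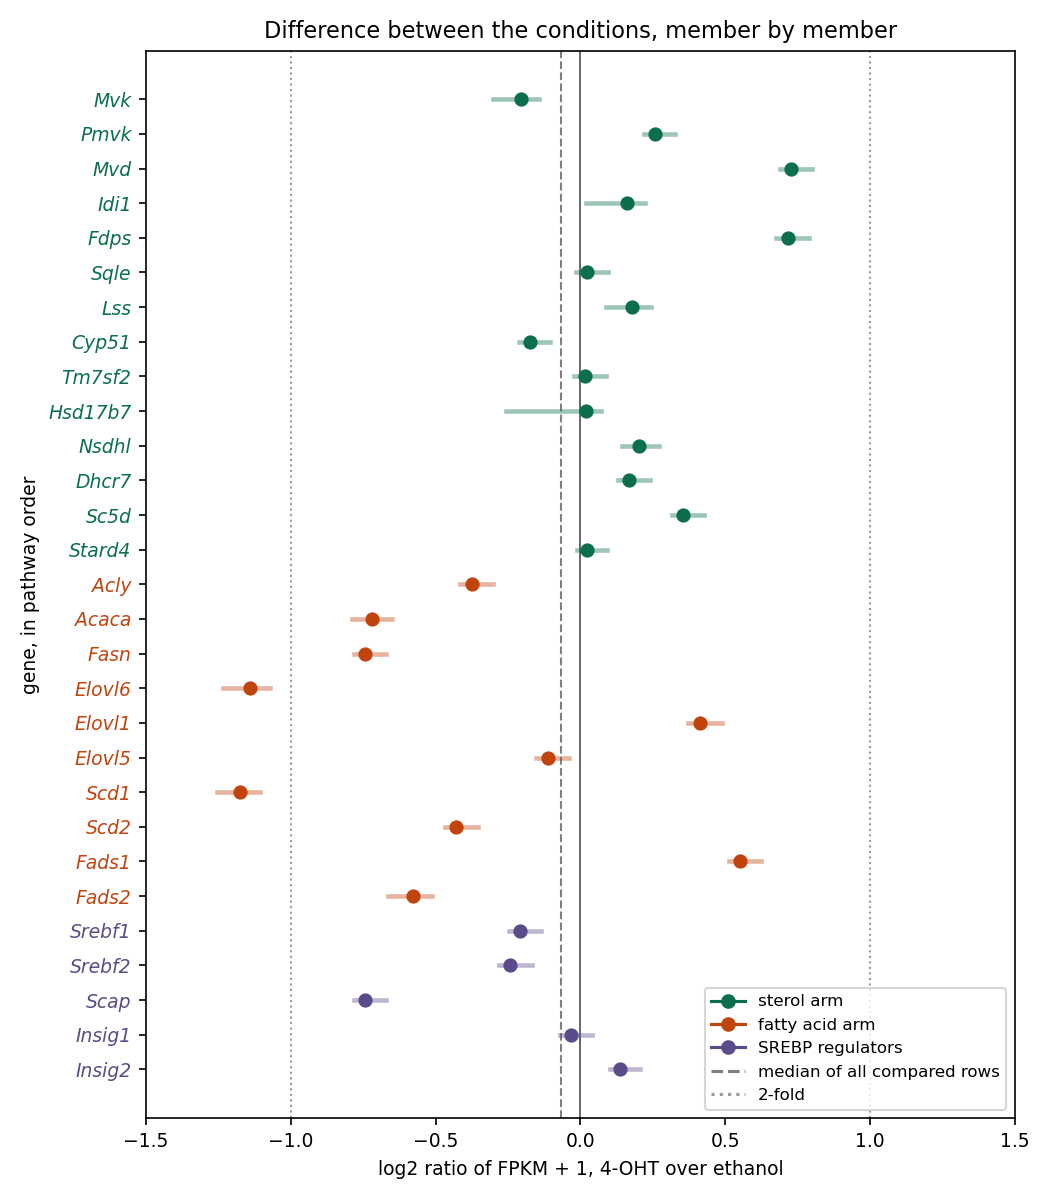
Log2 ratio of FPKM + 1, 4-OHT over ethanol, for each compared member (points), with the range over the reported value and up to 9 alternative settings (bars), the median of all compared rows at -0.07 (dashed) and 2-fold differences (dotted). Scd1 and Elovl6 lie beyond 2-fold with their whole range, whereas the ranges of Sqle, Tm7sf2, Hsd17b7, Stard4 and Insig1 cross 0.

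Among the regulators, both SREBP genes were expressed and were slightly lower in 4-OHT. Srebf2 stood at 34.8 FPKM under ethanol and 29.3 under 4-OHT (log2 ratio -0.24). Srebf1 was at 22.0 and 18.9 FPKM (-0.21). The ratio of Srebf2 to Srebf1 was nearly the same in the conditions, 1.58 in ethanol and 1.55 in 4-OHT. The 2 isoforms of SREBP-1, which arise from different first exons, are not separated in the table, and the listed locus of Srebf1 spans 116 kb and overlaps the row of the neighbouring gene Rai1.

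Scap, the escort gene, was the regulator with the largest difference. It (chromosome 9, 110235797 to 110287450) stood at 36.1 FPKM under ethanol and 21.1 under 4-OHT, 1.68-fold lower (log2 ratio -0.74), and 6.83% of all compared rows had a lower ratio. Insig1, an INSIG gene that SREBPs themselves activate, was at 23.4 and 22.8 FPKM (-0.03), with the sign turning to 0.04 under median-of-ratios scaling. Insig2 was at 8.33 and 9.26 FPKM (0.14). Scap thus stood above Insig1 in ethanol (a ratio of 1.54) and slightly below it in 4-OHT (0.93), and a common scaling factor for either condition leaves these ratios as they are.

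Of 10 other genes of SREBP processing, 4 were higher and 6 lower (median log2 ratio -0.08), where 44.9% of all compared rows were higher. Mbtps1, the site-1 protease gene that makes the first cut in SREBPs, was lowest, at 44.4 and 28.7 FPKM (log2 ratio -0.62), followed by Syvn1, a ubiquitin ligase gene of the endoplasmic reticulum (59.8 and 48.2 FPKM, -0.31). Among those higher in 4-OHT was Erlin2, a gene of a membrane protein of the endoplasmic reticulum (9.44 and 12.2 FPKM, 0.34). Scap and Mbtps1, which act one after the other on SREBPs, were therefore both at least 1.5-fold lower.

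In the upper mevalonate pathway Mvd stood out from its neighbours. Mvd (chromosome 8, 124957496 to 124967322), the diphosphomevalonate decarboxylase gene, stood at 10.3 FPKM under ethanol and 17.7 under 4-OHT, 1.65-fold higher (log2 ratio 0.73). Mvk, the mevalonate kinase gene of the same route, was at 5.36 and 4.51 FPKM (-0.21). Pmvk, the kinase gene of the step between them, was at 8.17 and 9.95 FPKM (0.26). The ratios along these 3 consecutive steps thus ran from lower to higher. Idi1, whose product makes dimethylallyl diphosphate, was among the lowest members, at 3.73 and 4.28 FPKM (0.16).

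Fdps, the farnesyl diphosphate synthase gene at the branch point to sterols and isoprenoids, was the most abundant sterol gene and the other with a 1.5-fold difference. Fdps (chromosome 3, 88897510 to 88905867) stood at 31.6 FPKM under ethanol and 52.5 under 4-OHT, 1.64-fold higher (log2 ratio 0.72). The ratios of Mvd and Fdps were exceeded by 16.4% and 16.6% of all compared rows. Fdft1, the next step toward squalene, has no usable ratio: its row is 1 of 5 in which a value in ethanol stands beside 0 in 4-OHT and a fold change of 0 in the authors' deposited table. The other 4, Lyz2, Psap, Ctsd and Ctsb, are macrophage and lysosomal genes at 556 to 3835 FPKM in ethanol.

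The listed genes that act on squalene and lanosterol were close to equal in the conditions. Sqle, the squalene epoxidase gene and a rate-limiting step, was at 16.3 and 16.6 FPKM (log2 ratio 0.02). Lss, which encodes the cyclase that forms lanosterol, was at 5.05 and 5.84 FPKM (0.18). Cyp51, the lanosterol demethylase gene, was lower, at 12.8 and 11.3 FPKM (-0.17). These 3 genes differed by at most 1.13-fold. The reductase gene Tm7sf2 was at 20.4 and 20.6 FPKM (0.02), in a row merged with 1110014N23Rik, so its own level cannot be told apart from that of the other gene.

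The listed members of the late steps were slightly higher in 4-OHT, apart from Hsd17b7, whose sign turned with the scaling. Nsdhl, which takes part in removing methyl groups from the sterol ring, was at 5.77 and 6.79 FPKM (log2 ratio 0.20), and Hsd17b7, the ketoreductase gene of the same process, was the lowest member, at 2.23 and 2.27 FPKM (0.02). Sc5d, the sterol desaturase gene, was at 11.9 and 15.5 FPKM (0.35). Dhcr7, which encodes the reductase of 7-dehydrocholesterol, was at 11.5 and 13.0 FPKM (0.17). After Mvd and Fdps, Sc5d had the highest ratio of the sterol arm. Stard4, a sterol carrier gene, was at 8.06 and 8.21 FPKM (0.02). The FPKM of the 14 compared sterol genes summed to 153 in ethanol and 189 in 4-OHT, and Fdps alone made up 20.9 of the difference of 35.9.

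Of 8 other sterol synthesis genes compared, 4 were higher and 4 lower, where 44.9% of all compared rows were higher. Their median, -0.04, was 0.03 under median-of-ratios scaling and 0.01 with no filter on low values. Sc4mol, the methylsterol monooxygenase gene now named Msmo1, was at 16.9 and 29.1 FPKM (log2 ratio 0.75), close to Mvd and Fdps. The highest was 4931406C07Rik (5.37 and 10.1 FPKM, 0.80), whose place in the pathway is not sure, and without it the median was -0.10. Lbr, which encodes a sterol reductase that is also a receptor of the nuclear lamina, was lowest, at 96.8 and 60.6 FPKM (-0.67), followed by Acat2 (7.33 and 6.08 FPKM, -0.24), which makes acetoacetyl-CoA for the pathway. Against 12 of 14 in the listed sterol arm, 4 of these 8 genes were higher, a difference that was not tested.

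In the fatty acid arm the genes that build palmitate were all lower. Acly, the ATP citrate lyase gene that supplies cytosolic acetyl-CoA, stood at 77.9 FPKM under ethanol and 59.8 under 4-OHT (log2 ratio -0.38). Acaca (chromosome 11, 84008940 to 84215153), the acetyl-CoA carboxylase gene that makes malonyl-CoA, was at 13.6 and 7.85 FPKM, 1.65-fold lower (-0.72). Fasn (chromosome 11, 120667272 to 120685861), the fatty acid synthase gene, was at 45.0 and 26.5 FPKM, 1.67-fold lower (-0.74). The ratios of Acaca and Fasn were nearly the same, and 7.62% and 6.89% of all compared rows had lower ones. In the same comparison the B cell markers had a median of -1.11 and the proliferation markers one of -0.77, and their part in these values was not tested.

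The elongases went apart. Elovl6 (chromosome 3, 129235304 to 129341411), which encodes the elongase of palmitate, stood at 19.2 FPKM under ethanol and 8.17 under 4-OHT, 2.21-fold lower (log2 ratio -1.14). Elovl1, the elongase gene of very long saturated chains, was higher, at 42.9 and 57.4 FPKM (0.41). Elovl5, the elongase gene of polyunsaturated chains, was at 28.5 and 26.2 FPKM (-0.11). Elovl6 therefore stood at 0.45 of the FPKM of Elovl1 in ethanol and at 0.14 in 4-OHT, ratios that a common scaling factor for either condition leaves as they are.

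The desaturases of saturated chains were both lower, Scd1 by more. Scd1 (chromosome 19, 44468940 to 44482199), a stearoyl-CoA desaturase gene, stood at 23.8 FPKM under ethanol and 9.99 under 4-OHT, 2.26-fold lower (log2 ratio -1.18), and 1.35% of all compared rows had a lower ratio. Scd2 (chromosome 19, 44368166 to 44381352), its neighbouring paralog, was the most abundant member in both conditions, at 102 and 75.6 FPKM (-0.43). The sum of both was 126 FPKM under ethanol and 85.6 under 4-OHT, and the share of Scd1 in it was 18.9% and 11.7%. The paralogs are similar in sequence and reads may have been split between them by the authors' counting, so their separate values are uncertain. Of the other genes of this cluster, Scd3 and Scd4 were below 1 FPKM in both conditions. The authors' deposited table lists log2 fold changes of -1.25 for Scd1 and -1.24 for Elovl6.

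The genes of polyunsaturated fatty acid synthesis that lie side by side on chromosome 19 differed in opposite directions. Fads1 (10257378 to 10271362), the delta-5 desaturase gene, stood at 10.8 FPKM under ethanol and 16.4 under 4-OHT (log2 ratio 0.55). Fads2 (10138654 to 10175993), the delta-6 desaturase gene, was at 8.73 and 5.51 FPKM (-0.58). Their listed loci are 81.4 kb apart, and 0 rows of the table lie wholly between them. The ratio of Fads1 to Fads2 was 1.24 in ethanol and 2.97 in 4-OHT. Fads3, the third gene of this family, was at 2.02 and 2.71 FPKM (0.30).

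**Figure D3:**
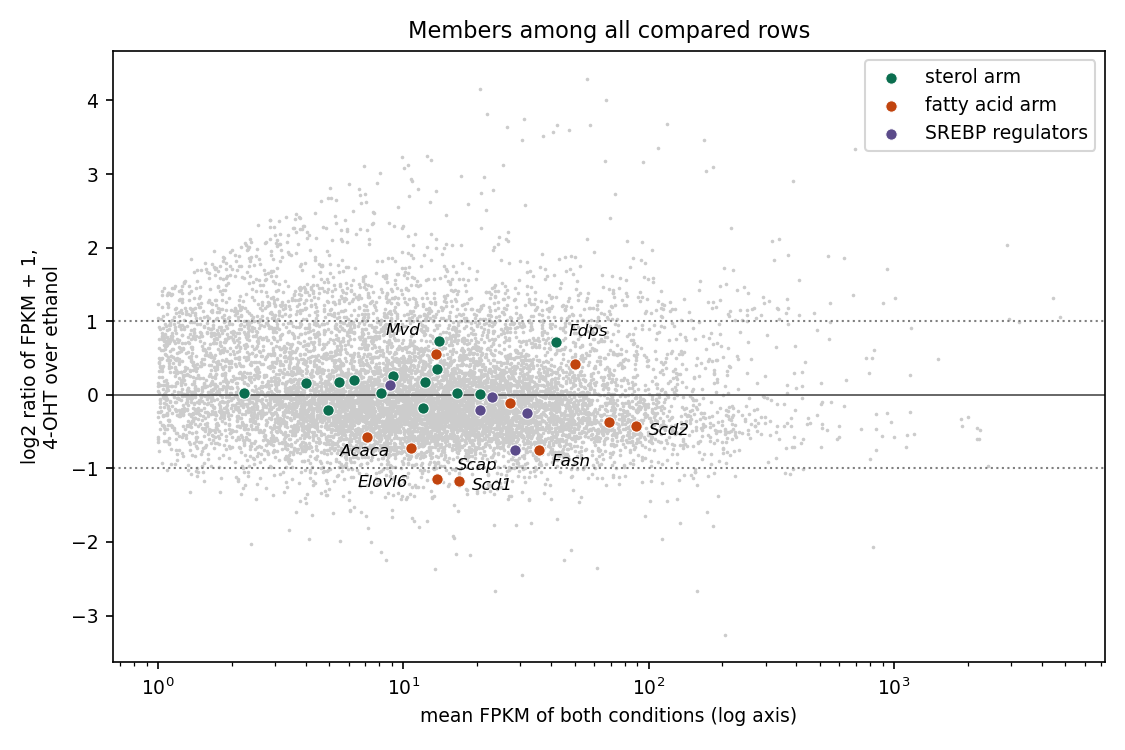
Log2 ratio of FPKM + 1, 4-OHT over ethanol, against the mean FPKM of both conditions (log axis) for all 10856 compared rows (grey) and the 29 compared members (coloured by arm), with dotted lines at 2-fold. Scd1 and Elovl6 lie below the lower line, and Mvd and Fdps are the highest members.

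Further genes of fatty acid synthesis and activation had no common direction. Of 14 compared genes 6 were higher and 8 lower, where 44.9% of all compared rows were higher. Their median, -0.03, was 0.04 under median-of-ratios scaling. The lowest were the acyl-CoA synthetase genes Acsl1 (22.0 and 15.3 FPKM, log2 ratio -0.50) and Acsl3 (11.5 and 7.86 FPKM, -0.49, in a row merged with Utp14b). The highest were Acss2, which makes acetyl-CoA from acetate (1.05 and 2.34 FPKM, 0.70), and Lpin1, a phosphatidate phosphatase gene (3.03 and 4.93 FPKM, 0.56). Acss2 passed 2-fold with a pseudocount of 0.1 (1.09). Slc25a1, the citrate carrier gene that feeds Acly, was at 33.7 and 24.1 FPKM (-0.47) and so had a ratio near that of Acly. The FPKM of the 10 members of the fatty acid arm summed to 373 in ethanol and 293 in 4-OHT.

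A search of the promoters of the members for motifs was planned, and it is described here by arm. The windows are the 250 bases before each annotated start in RefSeq (GRCm38.p6, while the table uses mm9). RefSeq starts were given for 24 members, 33 in all, and for none of Fdps, Fdft1, Sqle, Stard4, Scd1, Scd2 and Fads1. The 7 promoters below were chosen after the values were seen, to show sterol genes that were higher (Mvd, Sc5d, Idi1) and lower (Mvk), fatty acid genes that were lower with and without a box (Fasn, Elovl6) and a regulator (Insig1). Capitals mark CCAAT, the box bound by NF-Y, a factor known to act with SREBPs, or ATTGG, the same box on the other strand.
Mvd, chr8:122443423-122443672, minus strand: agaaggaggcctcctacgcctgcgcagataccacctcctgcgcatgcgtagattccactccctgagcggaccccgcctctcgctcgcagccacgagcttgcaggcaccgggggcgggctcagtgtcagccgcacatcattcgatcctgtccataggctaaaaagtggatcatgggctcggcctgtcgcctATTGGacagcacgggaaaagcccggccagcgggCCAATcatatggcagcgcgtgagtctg
Sc5d, chr9:42264301-42264550, minus strand: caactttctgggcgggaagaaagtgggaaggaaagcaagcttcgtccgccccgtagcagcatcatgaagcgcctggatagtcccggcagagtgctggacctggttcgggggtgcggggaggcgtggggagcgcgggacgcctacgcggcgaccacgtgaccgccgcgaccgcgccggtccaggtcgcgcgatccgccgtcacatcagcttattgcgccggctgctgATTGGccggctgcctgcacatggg
Idi1, chr13:8885356-8885605, plus strand: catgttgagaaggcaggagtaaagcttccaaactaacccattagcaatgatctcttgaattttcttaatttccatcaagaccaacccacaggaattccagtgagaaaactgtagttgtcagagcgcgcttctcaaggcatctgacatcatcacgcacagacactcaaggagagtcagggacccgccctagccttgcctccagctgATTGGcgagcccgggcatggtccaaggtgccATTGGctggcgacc
Mvk, chr5:114444019-114444268, plus strand: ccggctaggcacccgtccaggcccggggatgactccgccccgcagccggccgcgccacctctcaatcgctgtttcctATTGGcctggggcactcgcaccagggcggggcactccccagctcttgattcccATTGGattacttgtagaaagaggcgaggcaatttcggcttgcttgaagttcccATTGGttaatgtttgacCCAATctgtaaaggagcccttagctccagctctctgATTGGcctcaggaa
Fasn, chr11:120824548-120824797, minus strand: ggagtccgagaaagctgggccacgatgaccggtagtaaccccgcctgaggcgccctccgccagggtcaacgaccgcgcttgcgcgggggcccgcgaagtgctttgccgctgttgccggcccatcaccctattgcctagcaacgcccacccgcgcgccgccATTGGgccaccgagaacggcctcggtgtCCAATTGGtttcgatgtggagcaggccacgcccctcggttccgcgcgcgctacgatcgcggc
Elovl6, chr3:129532136-129532385, plus strand: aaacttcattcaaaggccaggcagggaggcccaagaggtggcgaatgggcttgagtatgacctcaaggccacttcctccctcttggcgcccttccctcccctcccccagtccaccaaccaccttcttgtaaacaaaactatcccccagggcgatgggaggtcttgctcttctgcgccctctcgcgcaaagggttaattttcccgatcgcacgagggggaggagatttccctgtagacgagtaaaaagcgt
Insig1, chr5:28071162-28071411, plus strand: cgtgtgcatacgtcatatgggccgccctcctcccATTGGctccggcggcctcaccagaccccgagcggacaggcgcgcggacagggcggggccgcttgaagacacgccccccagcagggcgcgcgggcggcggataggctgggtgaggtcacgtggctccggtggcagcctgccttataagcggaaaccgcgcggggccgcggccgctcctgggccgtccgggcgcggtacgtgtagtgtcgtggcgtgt

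The box was found before at least 1 start of all 12 sterol genes with a promoter, Hmgcs1 included, and of 3 of 7 fatty acid genes (Fasn, Elovl1 and Elovl5) and 4 of 5 regulators. It was held by 33.8% of all 32851 promoters, and it was found in 40.7% of the 7887 genes that were compared and have a promoter. Mvk, which was lower in 4-OHT, held 5 boxes, more than Mvd with 2 or Sc5d with 1. In Mvd the boxes lie 60 to 56 and 27 to 23 bases before the start, and in Fasn 1 lies 90 to 86 bases before it and a further pair, on opposite strands, overlap within bases 62 to 55. The fatty acid genes without a box were Acly, Acaca, Elovl6 and Fads2, all lower in 4-OHT. Of the 3 with a box, 2 were lower as well (Fasn and Elovl5) and 1 was higher (Elovl1). Over the compared genes of the whole table that have a promoter and an unmerged row of their own, the median log2 ratio was -0.10 for the 3163 with a box and -0.05 for the 4616 without.

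The other 3 motifs were searched on both strands as well. TCACNCCAC, a form of the sterol regulatory element bound by SREBPs, was found before 1 of 24 members, Hmgcs1, and in 1.26% of the compared genes. CACGTG, the E-box that MYC and MAX bind, was found before 6 of 24 members (Dhcr7, Hsd17b7, Sc5d, Elovl5, Insig1 and Scap) and in 10.4% of the compared genes. GGGCGG, the SP1 box, was found before 19 of 24 members and in 64.9% of the compared genes. Among the promoters of the members 1 CCAAT box, in Elovl1, overlapped another motif, an SP1 box. A match is a description of these letters, and a window without one says only that the letters are not in it.

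**Figure D4:**
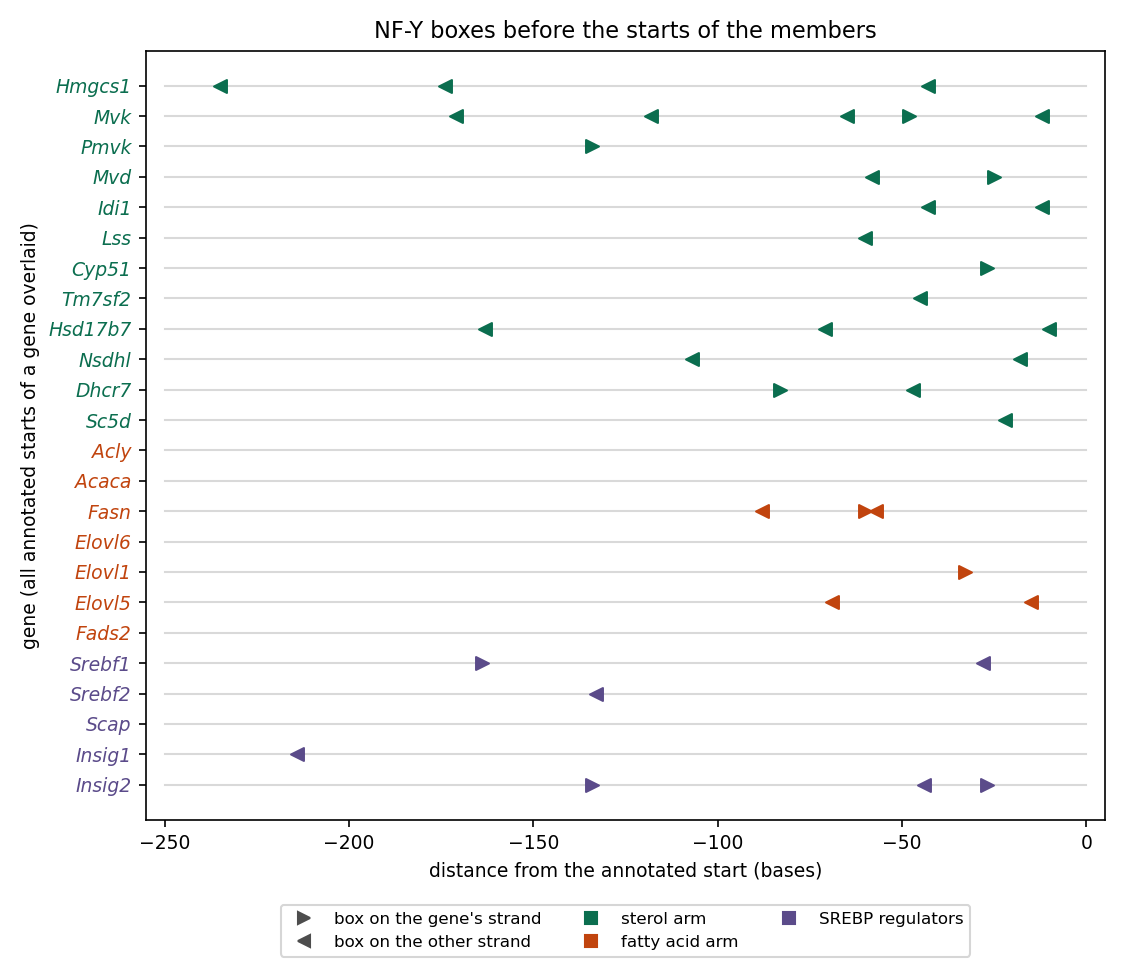
Position of each NF-Y box (triangles, pointing right on the strand of the gene and left on the other) in the 250 bases before the annotated starts of the 24 members with a promoter, in bases from the start, coloured by arm. Each of the 12 sterol genes has at least 1 box, while Acly, Acaca, Elovl6, Fads2 and Scap have 0.

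Genes that take up, store and export sterols were mostly higher in 4-OHT; how far this list differs from the synthesis genes was not tested. Of 12 compared genes 11 were higher and 4 passed 2-fold (median log2 ratio 0.79). Among all compared rows 44.9% were higher and 10.4% at least 2-fold higher. Soat1, which encodes the enzyme that esterifies cholesterol for storage, was at 18.7 and 46.1 FPKM (1.26), and Lipa, the lysosomal acid lipase gene, was at 69.2 and 162 FPKM (1.22). The lowest were Cyp27a1, a sterol hydroxylase gene (8.16 and 4.98 FPKM, -0.61), and Nr1h2, which encodes the oxysterol receptor LXR beta (50.0 and 53.1 FPKM, 0.09). Macrophages use many of these genes, and the 7 compared macrophage markers had a median of 1.17 in the same comparison, a shift whose part in these values was not tested.

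**Figure D5:**
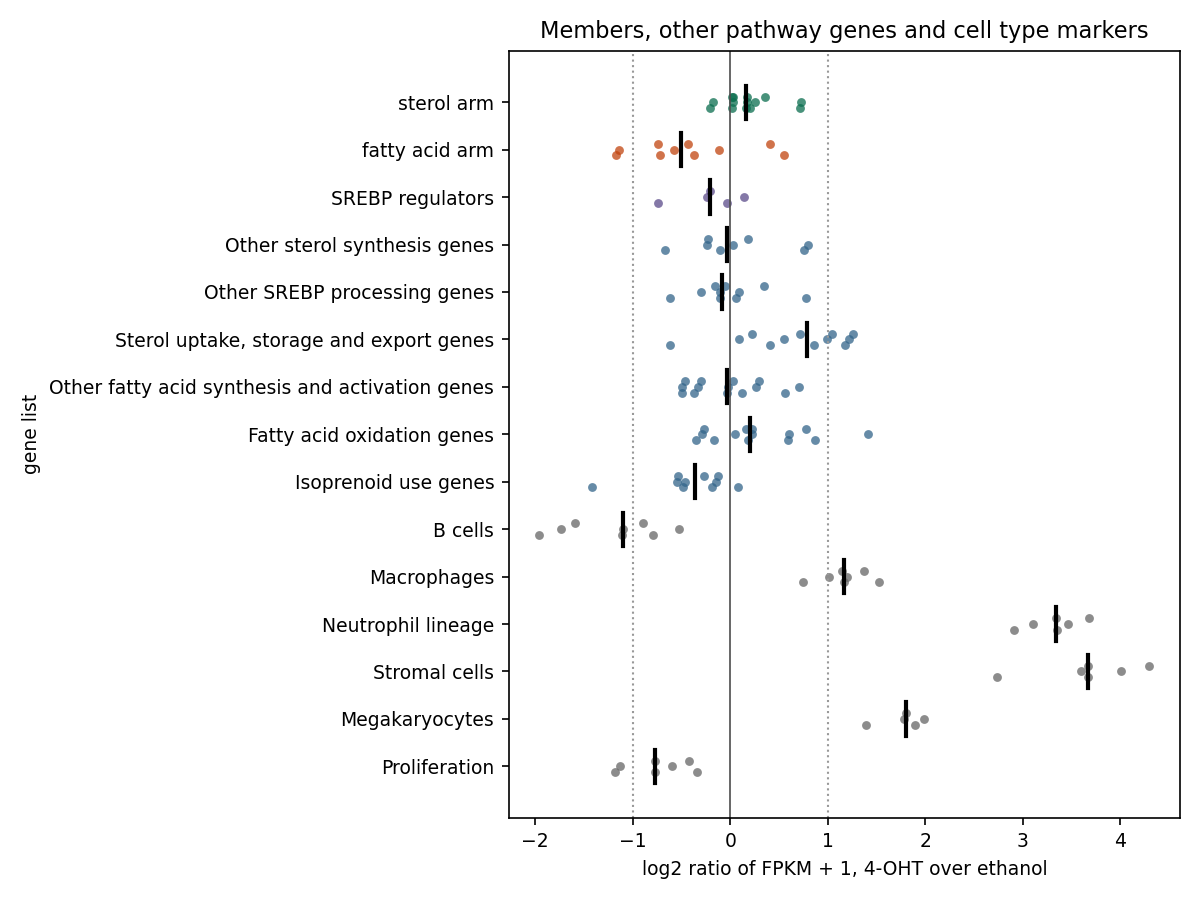
Log2 ratio of FPKM + 1, 4-OHT over ethanol, for each compared gene (points) of the 3 groups of members, 6 lists of other pathway genes and 6 lists of markers with at least 5 compared genes, with the median of each list (black bars) and 2-fold differences (dotted). The sterol arm has its median at 0.16 and the fatty acid arm at -0.50, between the B cell markers at -1.11 and the macrophage markers at 1.17.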

How the data were processed

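The 6 libraries, of cultured mouse B cells, were prepared with an Illumina TruSeq kit, per the labels. The authors deposited FPKM, 1 value per gene and condition; the sources used here do not say how the 3 libraries of a condition were combined or scaled. CASAVA, TopHat2 2.0.9 and Cufflinks 2.1.1, with the mm9 genome, are named in the submitters' processing notes. The authors' deposited log2 fold changes equal the log2 of the 4-OHT over the ethanol value in all 15756 rows above 0 in both, within 0.01.

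With 1 value per condition the planned limma fit and every test over libraries could not be run. A log2 ratio with a pseudocount of 1 FPKM was computed for the 10856 rows that average at least 1 FPKM and have both values above 0, and 2-fold and 1.5-fold were the call thresholds. A merged row counts for each of its names. Precision is unknown, since FPKM holds no counts. Locus starts were raised by 1, because lengths then equal those of RefSeq genes in 6341 rows, against 437 otherwise. Ratio and motif search were tested on simulated data. The software was pandas 2.3.3, numpy 2.4.6 and matplotlib 3.10.9 under Python 3.11.15.

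All 31 members are named, with Prmt5 and Myc and the 2 highest and 2 lowest genes of each other pathway list; further genes were chosen after their values were seen, and some items are not reported here. Members and lists were chosen with earlier results of these data known. Another scaling, pseudocount or filter, and leaving out merged rows, were tried as alternatives.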

Additional observations from a re-analysis of the deposited data

How the results depend on the processing

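The medians of the arms kept their sign under all 9 alternatives: 0.06 to 0.23 for the sterol arm, -0.55 to -0.43 for the fatty acid arm and -0.25 to -0.14 for the regulators. The 2 members at least 2-fold lower and the 0 at least 2-fold higher were the same in number under each, and 1.5-fold counts ran from 5 to 6 lower and 2 to 3 higher. Changing the filter or leaving out merged rows cannot alter the ratio of a member that is kept, so those alternatives do not probe the ratios. Scd1 ran from -1.25 to -1.11 and Elovl6 from -1.24 to -1.07. Of all compared rows 280 were at least 2-fold lower, 457 when the pseudocount was 0.1 and 482 by the authors' deposited fold changes; with a minimum of 5 FPKM, where 8129 rows were compared, 700 were at least 2-fold higher and 1314 at least 1.5-fold higher, against 1124 and 2121. That minimum also left out Mvk, Idi1 and Hsd17b7. The median of all rows ran from -0.11 to 0.01. Leaving out 4931406C07Rik was chosen after the data were seen. No paired analysis was possible because each condition has a single pooled column, and for that reason single libraries could not be left out either. Depth is unknown, and low values such as that of Hsd17b7 carry the least precision.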

Other observations

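Of 14 compared genes of fatty acid oxidation 10 were higher in 4-OHT and 4 lower, with a median log2 ratio of 0.20. Among all compared rows 44.9% were higher. How far this list differs from the genes of fatty acid synthesis was not tested. Cpt1a, which encodes the carnitine palmitoyltransferase that admits fatty acids to mitochondria, stood at 9.43 FPKM under ethanol and 26.7 under 4-OHT (1.41). The lowest were Hadhb (55.0 and 43.1 FPKM, -0.35), a subunit gene of the mitochondrial trifunctional protein, and Acads (31.6 and 25.6 FPKM, -0.29), a short-chain acyl-CoA dehydrogenase gene. The 7 compared macrophage markers were higher in the same comparison, with a median of 1.17, and their part was not tested.

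Genes listed for the use of isoprenoids were mostly lower. Of 10 compared genes 9 were lower and 1 higher, with a median of -0.37. Among all compared rows 55.1% were lower and 2.58% at least 2-fold lower. Coq2, whose product attaches the isoprenoid tail of ubiquinone, was at 39.3 and 14.1 FPKM (-1.41), the 1 gene of this list past 2-fold. Pdss1, which makes that tail, was at 4.50 and 2.76 FPKM (-0.55). The highest were Fnta, a subunit gene of farnesyltransferase (22.6 and 23.9 FPKM, 0.08), and Dhdds, a gene of dolichol synthesis (16.6 and 15.2 FPKM, -0.12). All 8 B cell markers were lower in the same comparison, with a median of -1.11, and their part was not tested.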
